A study of Homo sapiens with 6 samples.

Results

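The enzymes that cross-link collagen were followed in the human lung fibroblast line MRC5 through 9 genes chosen by symbol: *TGM2*, the lysyl oxidase genes *LOX*, *LOXL1*, *LOXL2*, *LOXL3* and *LOXL4*, and the lysyl hydroxylase genes *PLOD1*, *PLOD2* and *PLOD3*. All 9 were found among the 58676 gene identifiers of the count table, and all 9 passed the filter of at least 10 counts summed over the 6 libraries, which 19072 genes passed. The family was put together with the response of its genes to conditioned media (CM) already known from these libraries. Fold changes of its members are therefore given as a description, with a standard error (SE) but no p value, and the number called stands beside the share called among all genes.

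The study asked how lung fibroblasts respond to signals from epithelial cells in which RAS is active. In the control group (3 libraries), MRC5 cells were kept for 24 h in CM from control cells of an alveolar epithelial type II (ATII) line in which 4-hydroxytamoxifen (4-OHT) switches on RAS signaling. In the 4-OHT group (3 libraries), the CM, also kept on for 24 h, came from the same line after treatment with 4-OHT, whose dose and duration are not given in the sources used here. No TGF-β was added in either group. Every library comes from 1 fibroblast line and every CM from 1 epithelial line, the labels do not say whether replicates are separate cultures, and p values then measure only the spread between these libraries. The sources used here do not say whether CM still held 4-OHT, so that signals from RAS-active cells and 4-OHT carried over cannot be told apart.

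Cross-linking makes collagen insoluble and stiff, and it is a hallmark of scarred lung. Lysyl hydroxylases act first, inside the endoplasmic reticulum, where they add hydroxyl groups to lysines of new collagen chains. Lysyl oxidases, copper-dependent enzymes of the extracellular space, then turn lysines and hydroxylysines into aldehydes that join neighboring molecules of collagen or elastin. Transglutaminase 2, the product of *TGM2*, works by another chemistry: in the presence of calcium it ties glutamines to lysines, for example in fibronectin, and it also binds fibronectin and integrins at the cell surface.

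Counts on genes ranged from 17691849 to 26389449 per library with a median of 22273931, and control replicate 2 had the fewest. Levels are given as CPM, counts in proportion to the TMM-scaled library size, when a gene is compared between groups. When genes are compared with each other, levels are TPM, counts divided by merged exon length and scaled to the same total in each library. Merged exon length can differ from the length of the transcripts present, so that ratios of TPM are not transcript numbers. Each of the 9 fibroblast markers was at or above 412 CPM in every library, and together they summed to 41020.4 to 44535 CPM in the control group and 42888 to 44629 CPM in the 4-OHT group. Of these markers 5 were DEGs, with *DCN* (25.7%), *LUM* (22.4%), *PDGFRA* (16.5%) and *COL3A1* (13.3%) higher in the 4-OHT group and *VIM* lower (-6.71%), and their part in the differences of the enzyme genes was not tested. In contrast, the 9 epithelial markers summed to 2.24 to 3.09 CPM in the control group and 1.75 to 3.01 CPM in the 4-OHT group, with *KRT5* and *KRT14* at 0. Of 3 endothelial markers *PECAM1* and *CDH5* were at 0, and 3 immune markers summed to at most 0.112 CPM. In bulk RNA, fewer cells of a type and less RNA per cell cannot be told apart.

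Of the 9 genes, 1 was a DEG with a higher level in the 4-OHT group (*TGM2*) and 2 were DEGs with a lower level (*LOX* and *LOXL2*), where a DEG is a gene with an adjusted p value below 0.05 in edgeR's quasi-likelihood test over all 19072 genes. Among all genes tested, 5.72% were DEGs, 2.95% upregulated and 2.76% downregulated. The log2 fold changes of the 9 genes ran from -0.17 to 0.38 with a median of -0.042, and those of all genes had a median of -0.0020. In *TGM2*, *LOX*, *LOXL2* and *PLOD3* the 3 values of one group lay apart from the 3 of the other, which was so for 22.1% of all genes. Of these, *TGM2* was higher and the other 3 genes were lower, against 11.7% and 10.4% of all genes, and 6 of the 9 genes had an unadjusted p value below 0.05, against 17.3% of all genes. As this contrast was known when the family was chosen, nothing is read from these counts.

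**Figure D1:**
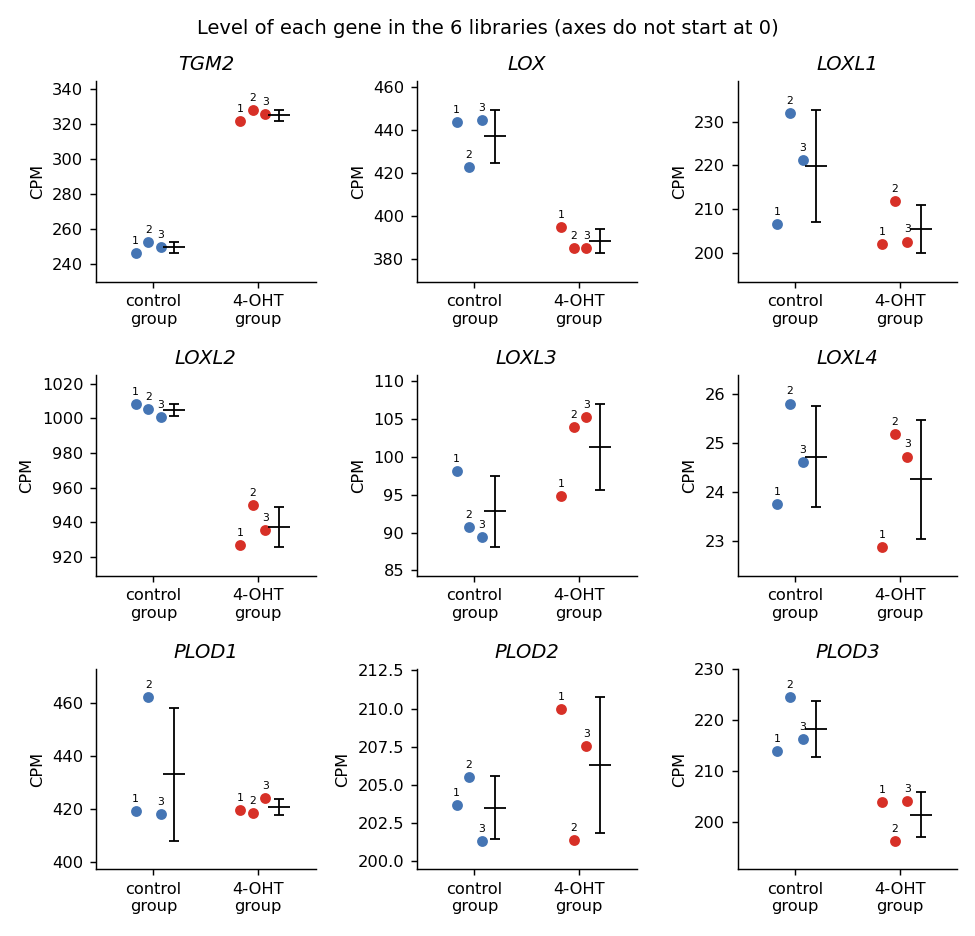
Level in CPM (vertical axes, which do not start at 0) of each of the 9 genes in the 3 libraries of the control group (blue) and the 3 of the 4-OHT group (red), numbered by replicate, with the mean and SD of each group as a bar. *TGM2* is at 246 to 252 CPM in the control group and 322 to 328 CPM in the 4-OHT group, and *PLOD1* has 1 high value, 462 CPM in control replicate 2.

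*TGM2* (ENSG00000198959) is a gene of chromosome 20 (GRCh38, 38127387 to 38166578, minus strand). It was measured at 246, 252 and 249.5 CPM in replicates 1 to 3 of the control group and at 322, 328 and 326 CPM in those of the 4-OHT group. Every library of the second group was higher than every library of the first, and the gap of 69.2 CPM between the groups was far wider than either of them, with SDs of 3.15 and 3.17 CPM (n = 3 each). The log2 fold change was 0.38 (SE 0.0312), a level 30.4% higher. *TGM2* was a DEG under all 13 alternative settings, which changed the test, the scaling, the filter or the block or left out 1 library, and its log2 fold change stayed between 0.37 and 0.395.

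Part of the *TGM2* exons, 394 of 8036 bases, is shared with *RPRD1B* on the opposite strand, and the sources used here do not say whether reads were counted by strand. The whole level of *RPRD1B* was 31.0 CPM in the control group and 32.1 CPM in the 4-OHT group. It differed between the groups by 1.17 CPM, and *TGM2* by 75.7 CPM.

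No other transglutaminase was present at a level near that of *TGM2*. Of the 9 other genes of that family and its relatives, 8 had no count in any library, among them *F13A1*, which encodes the catalytic chain of clotting factor XIII, and *TGM3* of hair and skin. A count of 0 says only that these genes were not detectable at this depth. *TGM1*, the transglutaminase of the cornified envelope of skin, had 196 counts in all and was at 1.55 ± 0.195 CPM in the control group and 1.38 ± 0.0287 CPM in the 4-OHT group (SD, n = 3 each). Its log2 fold change was -0.16 (SE 0.212, adjusted p = 0.780 from edgeR). As the 1 gene of this list that could be tested, *TGM1* was called in 0 of 12 alternatives, and DESeq2 gave it no adjusted p.

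Both DEGs among the lysyl oxidases were lower in the 4-OHT group. *LOX* (ENSG00000113083, chromosome 5, 122063195 to 122078360, minus strand) encodes the founding member of the family, which is secreted as a proenzyme and cut by the protease BMP1. Replicates 1 to 3 held 444, 423 and 444 CPM in the control group and 395, 385 and 385 CPM in the 4-OHT group. The groups did not overlap, with a gap of 27.8 CPM, and control replicate 2 was the lowest of its group. The log2 fold change of *LOX* was -0.17 (SE 0.0320), a change of -11.1%, and *LOX* was a DEG in all 13 alternatives, with values from -0.19 to -0.16. Its exons share 138 of 5547 bases with *SRFBP1* on the opposite strand, whose whole level was 8.53 CPM in the control group, against a difference of -48.6 CPM in *LOX*.

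*LOXL2* (ENSG00000134013, chromosome 8, 23297189 to 23425328, minus strand) encodes an oxidase with scavenger receptor domains that also acts on collagen IV of basement membranes. CPM values were 1008, 1006 and 1001 in the control group and 927, 949.7 and 936 in the 4-OHT group. Control libraries lay within an SD of 3.63 CPM and those of the 4-OHT group within 11.6 CPM, and 51.3 CPM separated the groups. The difference was small, with a log2 fold change of -0.10 (SE 0.0265) or -6.72%, and close to the threshold. *LOXL2* remained a DEG in 6 of the 13 alternatives, DESeq2 and limma-voom among them. It was not called with the replicate block, without a filter on low counts, or when control replicate 1 or 3 or any library of the 4-OHT group was left out, while its log2 fold change stayed from -0.11 to -0.088. On the same strand its exons share 120 bases with *ENTPD4*, which was at 119 and 117 CPM in the 2 groups. On the opposite strand 178 bases are shared with *LOXL2-AS1*, whose whole level was 1.18 CPM in the control group and 0.680 CPM in the 4-OHT group, against a difference of -67.5 CPM in *LOXL2*.

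The other 3 lysyl oxidase genes were not DEGs, and their groups overlapped. *LOXL1* (ENSG00000129038, chromosome 15, 73925989 to 73952137, plus strand), whose enzyme deposits elastin, had 207, 232 and 221 CPM in the control group and 202, 212 and 203 CPM in the 4-OHT group. Control replicate 2 was the highest, and the log2 fold change of -0.097 (SE 0.0418) came to -0.058 without it. Its exons share 335 bases (9.21%) with *LOXL1-AS1* on the opposite strand, which was at 23.1 and 23.5 CPM, against a difference of -14.5 CPM in *LOXL1*. *LOXL3* (ENSG00000115318, chromosome 2, 74532414 to 74555690, minus strand), an oxidase needed for normal palate and spine, stood at 98.2, 90.8 and 89.4 CPM in the control group and 94.8, 104 and 105 CPM in the 4-OHT group. In each group replicate 1 was the one that reached into the range of the other group. Its log2 fold change was 0.13 (SE 0.0477), and it was called in 1 of 13 alternatives, the one without a filter on low counts. *LOXL3* is the member with the largest exon overlap, 625 bases or 14.3% of its exons with *HTRA2* on the opposite strand and 216 bases with *DOK1*. *HTRA2* was at 16.0 and 17.0 CPM in the 2 groups and *DOK1* at 37.8 and 37.7 CPM, against a difference of 8.57 CPM in *LOXL3*. *LOXL4* (ENSG00000138131, chromosome 10, 98247690 to 98268250, minus strand) was the lowest of the 9 genes, at 23.8, 25.8 and 24.6 CPM in the control group and 22.9, 25.2 and 24.7 CPM in the 4-OHT group, with a log2 fold change of -0.024 (SE 0.0610).

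No lysyl hydroxylase gene was a DEG with edgeR. *PLOD3* (ENSG00000106397, chromosome 7, 101205977 to 101218420, minus strand), whose enzyme also adds sugars to hydroxylysine, had 214, 224.5 and 216 CPM in the control group and 204, 196 and 204 CPM in the 4-OHT group. Its groups did not overlap, with a gap of 9.83 CPM. The log2 fold change of *PLOD3* was -0.12 (SE 0.0348), and it was a downregulated DEG with DESeq2 and limma-voom but in none of the other 11 alternatives. It shares 429 bases of exon with *ZNHIT1* on the opposite strand, which was at 86.9 and 85.5 CPM.

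*PLOD1* (ENSG00000083444, chromosome 1, 11934205 to 11975538, plus strand) encodes the enzyme that hydroxylates lysines of the collagen triple helix. Its values were 419, 462 and 418 CPM in the control group and 419.7, 418 and 424 CPM in the 4-OHT group, so that control replicate 2 stood apart and the other 5 libraries lay together. The log2 fold change was -0.042 (SE 0.0379) with that library and 0.0075 without it. *PLOD2* (ENSG00000152952, chromosome 3, 146069440 to 146163653, minus strand) encodes the enzyme of the collagen ends, whose product gives the stable cross-links of fibrotic tissue. It had 204, 205.5 and 201 CPM in the control group and 210.0, 201 and 208 CPM in the 4-OHT group, overlapping groups with a log2 fold change of 0.020 (SE 0.0334), which was 0.0062 without control replicate 3 and 0.035 without 4-OHT replicate 2. No exons of other genes overlap those of *PLOD1* and *PLOD2*.

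**Figure D2:**
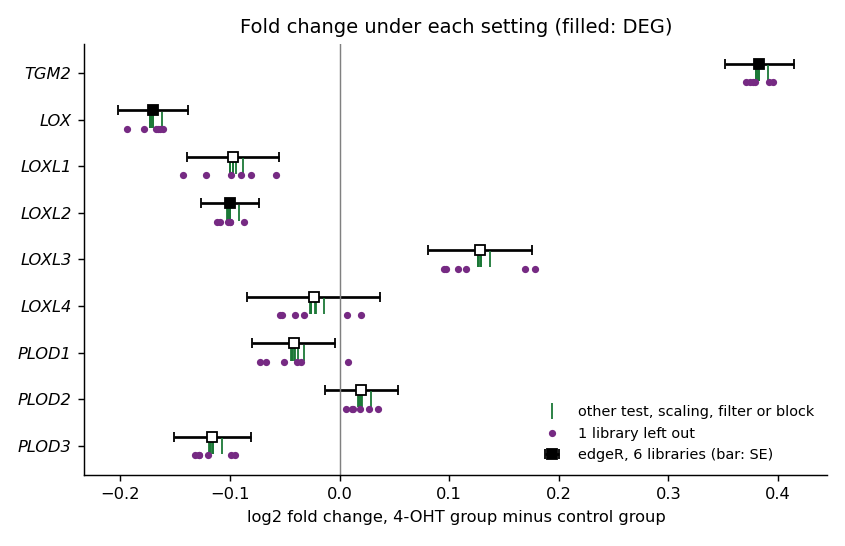
Log2 fold change between the 4-OHT group and the control group (horizontal axis) of the 9 genes: squares give edgeR with 6 libraries and its SE, filled for DEGs, green ticks other tests, scalings, filters and the block, and purple points fits with 1 library left out. All points of *TGM2* lie between 0.37 and 0.395 and all of *LOX* between -0.19 and -0.16, while those of *LOXL4* and *PLOD1* fall on both sides of 0.

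Per length of merged exons, *LOXL2* was the most abundant of the 9 genes in MRC5 cells. In the control group its level was 719 ± 7.90 TPM (SD, n = 3), rank 190 of the 19072 genes and 2.16 times the next level. *PLOD1* at 332 ± 17.7 TPM and *LOX* at 322 ± 11.0 TPM followed, and the ranges of these 2 overlapped, so that their order is not resolved. Below them came *LOXL1* at 247 ± 12.4 TPM, *PLOD3* at 157 ± 3.04 TPM, *TGM2* at 127 ± 0.672 TPM, *PLOD2* at 109 ± 1.35 TPM, *LOXL3* at 86.8 ± 5.10 TPM and *LOXL4* at 27.6 ± 0.952 TPM. From *LOX* down, each of these neighbors was separated from the next in all 3 libraries.

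In the 4-OHT group the order was the same except for 1 exchange. *TGM2*, at 164 ± 0.522 TPM (SD, n = 3), stood above *PLOD3* at 144 ± 4.76 TPM, with ranges that did not overlap in either group. This exchange depends on the division by length. In CPM, *TGM2* was above *PLOD3* in the control group too, at 249 against 218 CPM. *LOXL2* was at 667 ± 1.97 TPM, *PLOD1* at 321 ± 5.01 TPM and *LOX* at 284 ± 7.67 TPM, and here the last 2 did not overlap. In rank among the genes tested, *TGM2* went from 1278 to 974 and *LOX* from 476 to 534.

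**Figure D3:**
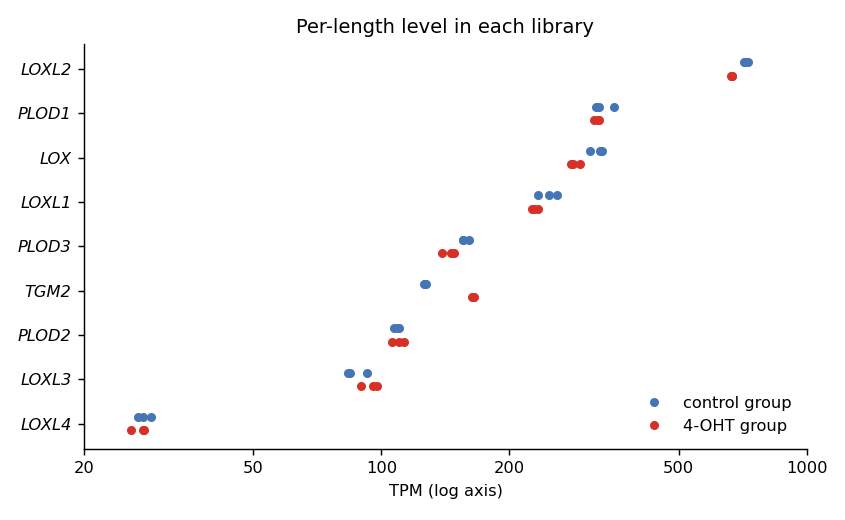
TPM (horizontal log axis) of the 9 genes in each library of the control group (blue) and the 4-OHT group (red), ordered by the mean in the control group. *LOXL2* leads in all 6 libraries and *LOXL4* is lowest, and *TGM2* passes *PLOD3* in the 4-OHT group, 164 against 144 TPM.

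Within the lysyl oxidase family, the total was lower in the 4-OHT group and its make-up hardly differed. The 5 genes summed to 1411, 1396 and 1398 TPM in the control group and to 1305, 1303 and 1297 TPM in the 4-OHT group. *LOXL2* held 51.3% ± 0.273 (SD, n = 3) of the sum in the control group and 51.2% ± 0.0143 in the 4-OHT group, and *LOX* 22.9% ± 0.691 and 21.8% ± 0.552. *LOXL3* was the 1 gene of this family with shares that lay apart, with 5.97% to 6.57% in the control group and 6.85% to 7.54% in the 4-OHT group.

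The lysyl hydroxylase genes summed to 590, 622 and 582 TPM in the control group and 586, 559.8 and 579 TPM in the 4-OHT group, overlapping ranges. *PLOD1* held 55.5% ± 0.970 and 55.9% ± 0.445 of these sums (SD, n = 3 each), and *PLOD2* 18.2% ± 0.578 and 19.1% ± 0.218. Shares of *PLOD2* were higher and those of *PLOD3* lower in every library of the second group, and those of *PLOD1* overlapped. The ratio of *TGM2* TPM to *LOX* TPM was 0.383, 0.412 and 0.388 in the control group and 0.562, 0.588 and 0.584 in the 4-OHT group. The 2 groups did not overlap.

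The promoters of *LOX* and *PLOD2* are shown because both genes are textbook targets of hypoxia-inducible factors (HIF). Another reason is that 1 of them was a DEG and the other was not. HIF bind DNA at short cores such as ACGTG, the only form of the core searched for here. RefSeq promoter windows (GRCh38.p14) were found for 7 of the 9 genes, all but *TGM2* and *LOXL2*, and the 250 bases before each start were searched on both strands. Matches are printed 5′ to 3′ on the strand of the gene with 10 bases on each side, the core (or its reverse complement CACGT) in capitals and its distance from the start in the text that follows.
*LOX* site 1, chr5:122078430-122078454: tccctgtgcaACGTGtctgggggga
*LOX* site 2, chr5:122078361-122078385: gtccgccttgCACGTttccaatcgc
*LOX* site 3, chr5:122078343-122078367: caatcgcattACGTGaacaaatagc
*LOX* site 4, chr5:122078287-122078311: aactttgcaaACGTGccagaaagtt
*PLOD2* site 1, chr3:146161370-146161394: tgagcctccaCACGTagccgcaggc
*PLOD2* site 2, chr3:146161316-146161340: aacagtccagACGTGgggcccagga

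The cores of *LOX* begin at -185, -116, -98 and -42 from the most upstream of its transcript starts in the RefSeq table, and those of *PLOD2* at -200 and -146. All 6 sequences are printed on the minus strand of the genome, the strand of both genes, and where CACGT is in capitals (site 2 of *LOX* and site 1 of *PLOD2*) the letters ACGTG are on the other strand. These starts lie downstream of the 5′ ends of both genes given above, so that site 4 of *LOX*, site 3 in part and both sites of *PLOD2* are inside the annotated genes. Site 1 of *LOX* lies outside annotated exons, and the other 5 touch an exon of some annotated transcript. The other 2 windows of *LOX*, at starts further downstream, hold the same single core. The most upstream window of *LOX* holds 4 cores and that of *PLOD2* holds 2, where 0.669% and 7.52% of the 35116 windows of this length hold as many or more. Among all windows 18.5% hold at least 1 core. No ACGTG core was found in the windows of *LOXL1*, *LOXL3*, *LOXL4*, *PLOD1* and *PLOD3*, where other forms of the core were not searched for. An AP-1 site (TGANTCA, in 6.57% of windows) was in no window of the 7 genes, and the SMAD-binding motif CAGAC (38% of windows) was in those of *LOX*, *LOXL1* and *PLOD2*. These letters are a description of the windows, and binding was not measured.

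Around the enzymes, the genes of collagen maturation were followed through 5 lists with 60 genes, 49 of which were tested. Of these, 5 were upregulated DEGs (*FMOD*, *FBLN5*, *ITGB3*, *COL3A1* and *ELN*) and 2 were downregulated (*FN1* and *LTBP1*), 14.3% of the 49 against 5.72% of all genes. The median log2 fold change of the 49 genes was 0.010. The lists were written with earlier results of these libraries known, so the comparison is a description. The share of all genes is over every gene with at least 10 counts. Levels were not matched to it, here or for the single lists below.

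For the steps in the endoplasmic reticulum, none of the 16 genes for prolyl hydroxylases, collagen chaperones and collagen sugar transferases was called by edgeR, DESeq2 or limma-voom (0 each), and 2 of the 16 had an unadjusted p below 0.05 in edgeR. With 5.72% of all genes called and 17.3% below that unadjusted p, these counts show nothing particular to the list. Their log2 fold changes ran from -0.20 to 0.14 with a median of -0.012. *SERPINH1*, the collagen chaperone HSP47, was the most abundant, at 1740.3 ± 50.1 CPM in the control group and 1821 ± 20.4 CPM in the 4-OHT group (SD, n = 3 each). Its log2 fold change was 0.066 (SE 0.0272, adjusted p = 0.213 from edgeR), and it was called in 1 of 13 alternatives, without control replicate 2. *P4HB*, the shared subunit of collagen prolyl 4-hydroxylases, had a log2 fold change of -0.030 (SE 0.0321, adjusted p = 0.713), which was -0.0031 without control replicate 2.

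Outside the cell, 2 genes whose proteins guide lysyl oxidases rose, of 14 tested in their list, against 2.95% of all genes. *FMOD* (ENSG00000122176) encodes fibromodulin, a small proteoglycan that binds collagen and lysyl oxidase. It was at 15.9, 16.7 and 18.4 CPM in the control group and at 21.3, 23.2 and 21.1 CPM in the 4-OHT group. No value of one group reached the other, and the log2 fold change was 0.365 (SE 0.0728, adjusted p = 0.00638 from edgeR, highest 0.0510 without 4-OHT replicate 2). *FBLN5* (ENSG00000140092) encodes fibulin-5, which brings LOXL1 to elastic fibers. Levels of 270.2, 272.5 and 270.2 CPM in the control group stood against 297, 301 and 303 CPM in the 4-OHT group, a log2 fold change of 0.15 (SE 0.0308, adjusted p = 0.00891). It was not a DEG in 3 of 13 alternatives, which left out control replicate 3 or 4-OHT replicate 2 or 3, with adjusted p values up to 0.0763.

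In the same list of 15 genes for procollagen processing, lysyl oxidase partners and copper supply, the 12 other genes tested were not called, with log2 fold changes from -0.057 to 0.73 over all 14. The highest values, 0.73 for *PCOLCE2* (SE 0.960) and 0.71 for *TLL2* (SE 0.840), come from 12 counts each over the 6 libraries, and *FMOD* was the highest of the other genes. *EFEMP2*, the fibulin that binds LOX, was at 398 ± 5.57 CPM in the control group and 395 ± 8.40 CPM in the 4-OHT group (SD, n = 3 each). The log2 fold change of *EFEMP2* was -0.010 (SE 0.0311, adjusted p = 0.921). *PCOLCE*, which enhances the cutting of procollagen ends, had a log2 fold change of 0.080 (SE 0.0308, adjusted p = 0.169).

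Among 8 binding partners and substrates of transglutaminase 2, 1 rose and 2 fell, where 2.95% and 2.76% of all genes did, and 6 of the 8 had an unadjusted p below 0.05, against 17.3% of all genes. DESeq2 called 2 of the 8. *LTBP1* (ENSG00000049323) encodes the latent TGF-β binding protein that transglutaminase 2 ties to the matrix. It had 731, 674 and 725 CPM in the control group and 585, 575 and 578 CPM in the 4-OHT group. All libraries of the second group were lower, and the log2 fold change was -0.29 (SE 0.0335, adjusted p = 7.66e-05 from edgeR, called in all 13 alternatives). *FN1*, the fibronectin gene, was at 7503, 5651 and 7274 CPM in the control group and at 5538, 5416 and 5439.9 CPM in the 4-OHT group. Control replicate 2 lay near the second group, and the log2 fold change of *FN1* was -0.32 (SE 0.0684, adjusted p = 0.0107) with it and -0.435 without it. *FN1* was a DEG in 10 of 13 alternatives, not with DESeq2 or without control replicate 3 or 4-OHT replicate 2 (adjusted p up to 0.0891). *ITGB3*, an integrin partner, rose with a log2 fold change of 0.385 (SE 0.0523, adjusted p = 0.000336, called in all 13 alternatives). Values were 0.064 for *ITGB1* and 0.044 for *MFGE8* (adjusted p = 0.164 and 0.505). Both were called in 0 of 13 alternatives, and *MFGE8* came to 0.0745 without control replicate 2 (adjusted p = 0.051 from edgeR). The 8 genes had a median log2 fold change of -0.15. Lower values among the genes not called were those of *LRP1*, an endocytic receptor, and *ADGRG1*, an adhesion receptor, which are named after their values were seen. *LRP1* had a log2 fold change of -0.29 (SE 0.0991, adjusted p = 0.118) and overlapping groups, with control replicate 2 at 546 CPM and the other control libraries at 825 and 789.6 CPM, and without that replicate it was -0.45 (adjusted p = 1.68e-08). *ADGRG1*, at 5.78 to 6.18 CPM in the control group and 4.25 to 5.45 CPM in the 4-OHT group, had a log2 fold change of -0.33 (SE 0.125, adjusted p = 0.160) and was called in 0 of 13 alternatives.

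Of 12 fibrillar collagen chains and elastin, 10 were tested, and *COL3A1* and *ELN* rose, 2 of 10 against 2.95% of all genes, while DESeq2 called 1 of the 10. *ELN* (ENSG00000049540), the gene of elastin, stood at 40.6, 47.6 and 43.2 CPM in the control group and 53.5, 47.5 and 50.4 CPM in the 4-OHT group, so that the groups overlapped. Its log2 fold change was 0.21 (SE 0.0580, adjusted p = 0.0489 from edgeR), and it was called in 3 of 13 alternatives (adjusted p from 0.000385 to 0.221, and 0.00292 without control replicate 2). *COL3A1* had a log2 fold change of 0.18 (SE 0.0255, adjusted p = 0.000463) and was a DEG in all 13 alternatives. *COL1A1* and *COL1A2* had log2 fold changes of -0.093 and -0.015 (adjusted p = 0.0861 and 0.888), and were called in 4 and 1 of 13 alternatives. Control replicate 2 was the lowest control library for both, and without it the values were -0.14 for *COL1A1* (adjusted p = 1.8e-05) and -0.065 for *COL1A2* (adjusted p = 0.0411), whose sign differed between alternatives (-0.065 to 0.012). The ratio of *LOX* TPM to *COL3A1* TPM was 0.110, 0.111 and 0.111 in the control group and 0.0900, 0.0843 and 0.0862 in the 4-OHT group. For *COL1A1* these ratios were 0.0427 to 0.0449 and 0.0405 to 0.0428, which overlapped.

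**Figure D4:**
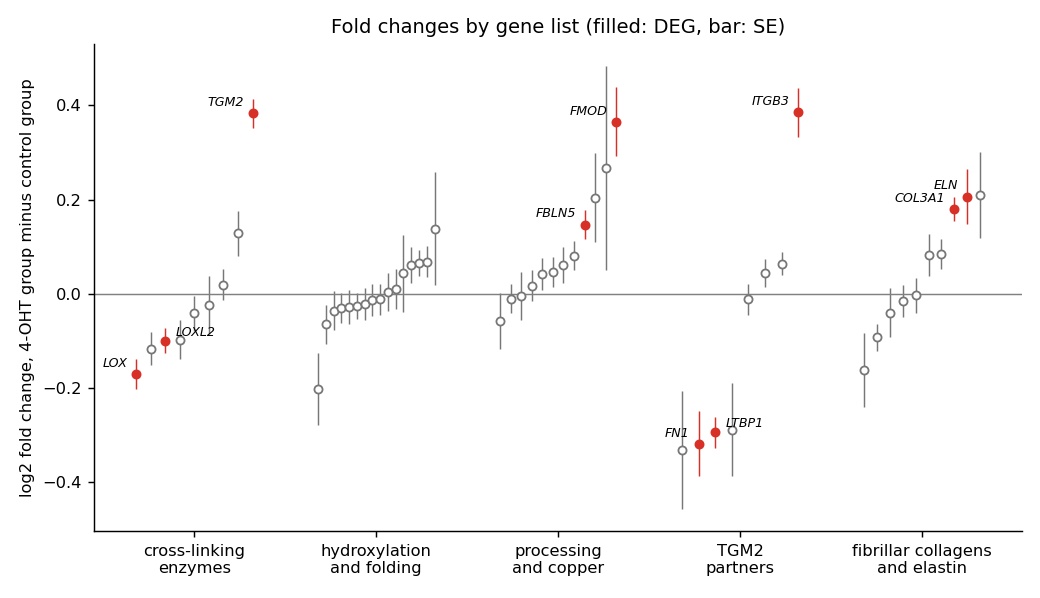
Log2 fold change (vertical axis, bars are SE) of the 9 cross-linking enzyme genes and of 46 genes in 4 of the lists with a mean of at least 1 CPM, each list sorted by value, with DEGs filled and named. The hydroxylation and folding list has no DEG, while *FMOD* at 0.365 and *ITGB3* at 0.385 lie near *TGM2* at 0.38.

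The genes whose pattern over the 6 libraries was most like that of *TGM2* were found by Pearson's correlation of log2 CPM among 9196 named genes with a mean of at least 10 CPM. The 5 highest were *BDKRB2* (r = 0.998), the bradykinin B2 receptor, *CPE* (0.998), a carboxypeptidase of peptide hormones, *BNIP3L* (0.997), a mitophagy receptor, *TSPAN12* (0.997), a tetraspanin, and *RASSF2* (0.997). *BDKRB2* was at 227 ± 3.66 CPM in the control group and 277 ± 0.471 CPM in the 4-OHT group (SD, n = 3 each). Among the 5 most opposite were *PTX3* (r = -0.999), which encodes a secreted pentraxin, *LIG1* (-0.999), a DNA ligase, *SMAD3* (-0.994), a transducer of TGF-β signals, and *MAGI2-AS3* (-0.993), a long noncoding RNA. *PTX3* was at 209.7 ± 2.31 and 169 ± 2.47 CPM. All 6 points of each pair share the 2 groups, and each gene named above was a DEG whose groups did not overlap. For *TGM2* the gap between the groups was 69.2 CPM and the SDs within them were 3.15 and 3.17 CPM. Such a correlation therefore mostly repeats the contrast, and variation shared within a group was not tested. With *LOX*, *LOXL2*, *PLOD3* and *LOXL1* the correlation of *TGM2* was -0.97, -0.97, -0.89 and -0.62. With *PLOD1*, *LOXL4*, *PLOD2* and *LOXL3* it was -0.35, -0.18, 0.42 and 0.71.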

How the data were processed

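RNA-Seq libraries of MRC5 cells (3 in the control group, 3 in the 4-OHT group, by sample titles) were analysed. The deposited values are raw counts per gene, which the authors obtained with featureCounts 1.6.5 from HISAT2 2.1.0 alignments to GRCh38 of adapter-trimmed reads (tools and versions per the submitters' processing notes), beside each gene's exon length. Annotation release and strand setting are not given in the sources used here. Counts of 45 identifiers listed on 2 rows were added, and symbols came from GENCODE release 44, which named 58207 of 58676 identifiers. Genes with at least 10 counts over the 6 libraries entered the quasi-likelihood test of edgeR 4.0.16 in R 4.3.3 (TMM scaling, group as the only term, Benjamini-Hochberg adjustment, threshold 0.05). SEs were derived from fold change and F. Alternatives were DESeq2 1.42.0, limma-voom (limma 3.58.1), 2 scalings, 2 filters, a replicate block and leaving out each library. The tests were checked on simulated data. Members, gene lists and the naming rule were chosen with earlier results of these data known. The rule named all 9 members, every DEG of a list with up to 2 further abundant genes, and the 5 genes most and least correlated with *TGM2*, 1 of which is not reported here. The choice of promoter motifs was made after the values were seen.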

Additional observations from a re-analysis of the deposited data

How the results depend on the processing

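The number of DEGs among all genes was 1090 and lay between 533 (without 4-OHT replicate 2) and 1530 (without control replicate 2) when 1 library was left out, with 663 without control replicate 3 and 615 without 4-OHT replicate 3. With all libraries the other settings gave from 954 (DESeq2) to 1601 (no filter on low counts). The number of cross-linking enzyme genes called was 3 and lay between 2 and 4 in all alternatives. For the collagen pathway genes, 7 were called with all libraries, 3 to 11 when 1 was left out (11 without control replicate 2, 4 without control replicate 3 and 3 without 4-OHT replicate 2), and 5 to 10 otherwise. With 1 library left out, the log2 fold change of *LOXL4* lay between -0.054 and 0.020, above 0 without control replicate 2 (0.0065) or 4-OHT replicate 1 (0.020), and that of *PLOD1* between -0.072 and 0.0075, above 0 without control replicate 2, whereas the other 7 genes kept their direction in all 13 alternatives. The cause was not tested. Between 7 and 8 of the 8 neighboring pairs kept their order of level within each library and with CPM in place of TPM. Deviations from the group means correlated between the groups at 0.00057, 0.00099 and -0.0039 for replicates 1 to 3. The 19072 genes in this comparison entered with as few as 10 counts in total. Whether replicate numbers pair the libraries therefore cannot be settled by these values. With the replicate block there were 985 DEGs, 2 of the 9 enzyme genes and 6 pathway genes.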
